A study of Peromyscus maniculatus with 6 samples.

Results

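Plasma membrane and lysosomal amino acid transporters were compared in deer mouse fibroblasts with and without tunicamycin. The set was 33 gene symbols from 8 solute carrier (SLC) families, matched by name to the deposited count table of 24281 genes. A row was found for 28 symbols, and 24 of these passed the filter on low counts and were tested. Slc3a2, Slc1a1, Slc1a3, Slc6a8 and Slc6a9 matched no row by name and are not analysed here. They may be among the 6252 genes of the table without a name, which held 22.1 to 26.1% of the counts of each library. Slc7a10, Slc6a15, Slc6a17 and Slc38a5 were found and were too low to test.

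The cells were primary fibroblasts grown from the ears of 3 deer mice of the BW stock (Peromyscus maniculatus), 4 weeks old and named BW35770, BW35772 and BW35773. Each animal gave 1 control library and 1 library from cells treated for 5 h with tunicamycin, at a concentration the label gives as 5 mg per mL. No other allele or agent is named, nor a vehicle for the controls. Tunicamycin stops cells from building the sugar chains of N-linked glycoproteins, so that misfolded glycoproteins build up in the endoplasmic reticulum and the unfolded protein response is switched on.

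Amino acid transporters are grouped by sequence into SLC families. Light chains of the SLC7 family sit in the plasma membrane together with the heavy chain encoded by Slc3a2, and exchange 1 amino acid for another. Other SLC7 members carry arginine and lysine alone, SLC1 members exchange small neutral amino acids or take up glutamate, and system A carriers of the SLC38 family pump glutamine and alanine into the cell with sodium. Some SLC36 and SLC38 members work on the lysosome, where amino acid levels are read by the mTORC1 pathway. When protein synthesis is curbed by stress kinases, the transcription factor ATF4 is made and is known to act on amino acid transport and synthesis genes in fibroblasts.

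Libraries held 37852385 to 49352126 counts on genes, and none was a copy of another (any pair differed by a chi-square of 32.3 to 292 per degree of freedom). Levels are CPM (counts scaled to library size, here with TMM factors), and levels of different genes are compared only as CPM per kb of annotated exon. The control of BW35772 held the fewest counts and its tunicamycin library the most, with the lowest and highest TMM factors, 0.964 and 1.059. All 9 fibroblast markers with a row lay over 1 CPM, with summed levels of 15353 to 21539 CPM in controls and 15787 to 20729 CPM in treated libraries. Vim had the highest mean of these in controls, 9316 CPM. In controls Thy1 was highest in BW35770, at 752 CPM against 85.2 and 118 CPM in BW35772 and BW35773. Col1a1 was lowest there, at 1107 CPM against 2857 and 2708 CPM. Summed cartilage markers (6 of 7 rows over 1 CPM) were also high, at 1868 to 8343 CPM in controls and 2074 to 8879 CPM in treated libraries. Matn1 had 2 counts over all libraries, and Matn3 a control mean of 1.31 CPM. The sums were lowest in animal BW35770 (Col2a1 at 743 and 842 CPM there, and 4095 to 6260 CPM in the other libraries). In the controls of BW35772 and BW35773, Col2a1 (5999 and 4538 CPM) lay above Col1a1. Markers of other cells were also present. Summed macrophage and leukocyte markers (2 of 5 rows over 1 CPM) lay at 88.3 to 181 CPM in controls and 69.9 to 157 CPM in treated libraries, nearly all of it Cd68, while Ptprc had 1 count over all libraries. Glia and nerve markers (1 of 4 rows over 1 CPM, S100b) lay at 72.1 to 127 and 48.2 to 84.5 CPM, and adipocyte markers (2 of 2) at 28.1 to 50.6 and 19.5 to 39.6 CPM. Keratinocyte markers (1 of 6, Krt14) lay at 4.78 to 23.0 and 2.65 to 13.1 CPM, with Krt1 at 0 counts. Muscle markers (1 of 4) lay at 17.9 to 23.5 and 14.9 to 17.7 CPM, and endothelial and melanocyte sums were under 5 CPM in every library. Of 28 tested markers 0 were called between treatments by edgeR, DESeq2 or limma-voom, and before adjustment 0 were higher and 2 lower at an edgeR p under 0.05. With the animal as a block, S100b and Krt14 were called lower, with log2 fold changes of -0.70 and -1.04 (edgeR adjusted p = 0.0194 and 0.0200), and both were lower in all 3 pairs. Their part in the transporters' values was not tested. The stress genes Atf4, Ddit3, Trib3 and Asns were called higher, with log2 fold changes of 2.47, 3.95, 4.54 and 1.41, and did not overlap between groups.

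After tunicamycin 5 of 24 tested transporters rose: the light chain Slc7a5, the arginine and lysine carrier Slc7a1, the small neutral exchangers Slc1a4 and Slc1a5, and the system A carrier Slc38a2. None fell. The test was edgeR's quasi-likelihood test on all genes with Benjamini-Hochberg adjustment, called at an adjusted p under 0.05 (n = 3 animals). The count of 5 is 20.8% of the tested transporters, while 1.78% of all 13503 tested genes were called higher, 0.792% lower and 2.58% in either direction. The set was chosen with earlier results of these data known, so these shares are a description. With the animal as a block in the fit, the same 5 transporters were called higher and 0 lower. The shares of all genes were then 3.07% higher, 2.4% lower and 5.47% in either direction. For falls, 0 of 24 were called by edgeR, DESeq2 or limma-voom, and 0 had an unadjusted edgeR p under 0.05. Their median log2 fold change was 0.42, against -0.01 over all tested genes, and it was 0.10 without the tunicamycin library of animal BW35772. In bulk RNA a change in the make-up of a culture and a change in RNA per cell cannot be told apart.

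**Figure D1:**
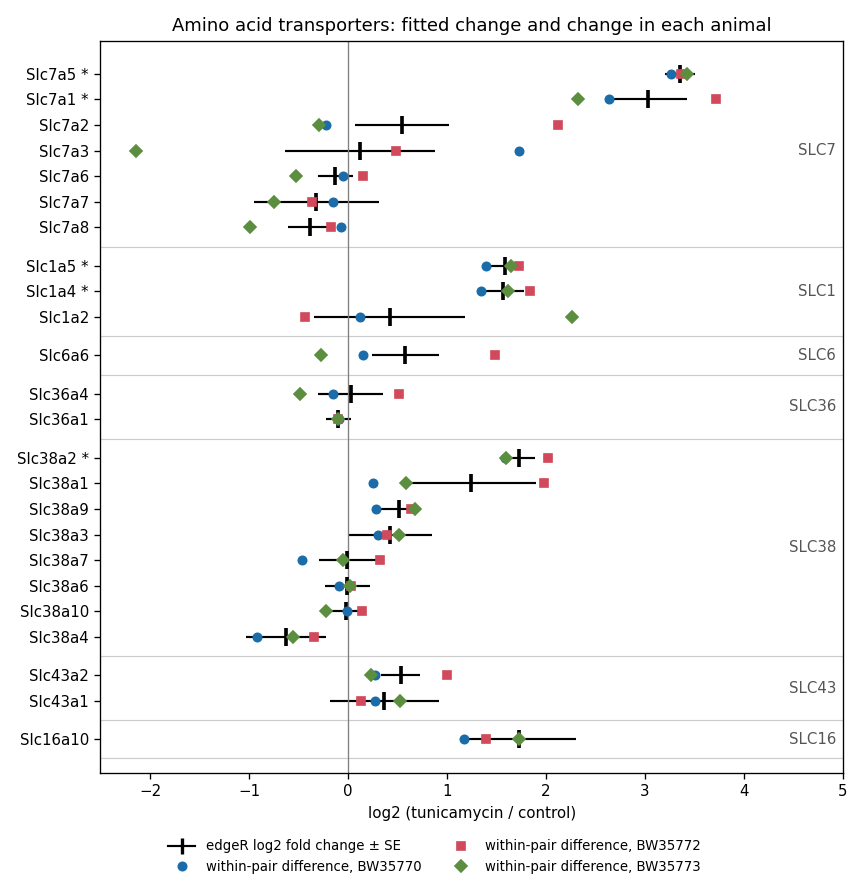
Log2 ratio of tunicamycin to control (horizontal axis) for the 24 tested transporters, grouped by SLC family. Black ticks and lines are the edgeR log2 fold change ± SE, coloured points the difference within each animal, and asterisks the 5 called genes, which lie to the right of 0 in every animal.

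Among light chains that pair with the Slc3a2 protein, Slc7a5 had the largest change of all transporters tested. It encodes LAT1, which brings in leucine and other large neutral amino acids. Control libraries of animals BW35770, BW35772 and BW35773 held 43.8, 52.6 and 48.2 CPM, and their tunicamycin libraries 419, 542 and 519 CPM. The groups lay far apart, and all 3 animals moved by nearly the same amount, with log2 differences of 3.26, 3.36 and 3.43. The log2 fold change was 3.36 ± 0.15 (SE), a 10.2-fold rise (edgeR adjusted p = 0.000146). In the deposited table the gene is ENSPEMG00000023626, on the plus strand of scaffold KI615763.1 from base 317269 to 347245, with 10 exons.

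Slc7a8, which encodes the related light chain LAT2, went the other way in each pair without being called. Its controls held 28.1, 22.7 and 29.6 CPM and its treated libraries 26.7, 20.2 and 14.9 CPM, with the groups overlapping. The log2 fold change was -0.38 ± 0.23 (edgeR adjusted p = 0.506), and most of it came from animal BW35773, whose difference was -0.99. Per length, Slc7a5 and Slc7a8 were level in controls, with means of 11.3 and 11.1 CPM per kb. In treated libraries the means were 116 CPM per kb for Slc7a5 and 8.54 for Slc7a8.

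The light chains of the exchanger of cationic for neutral amino acids were not called. Slc7a6 had a mean of 20.3 ± 1.69 CPM in controls and 18.5 ± 3.70 CPM in treated libraries (SD, n = 3), a log2 fold change of -0.13 ± 0.18. Slc7a7 was scarce, at 0.83 to 2.51 CPM in controls and 0.47 to 2.25 CPM in treated libraries, with a log2 fold change of -0.32 ± 0.63. Slc7a10, a light chain for small neutral amino acids, had 4 counts over all libraries. Slc7a11, the cystine light chain and no member of the set, was called higher at 2.19 ± 0.41 (edgeR adjusted p = 0.0402, and 0.0147 with the block). Its mean level was 0.77 CPM per kb in controls and 3.51 in treated libraries, far below that of Slc7a5.

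Of the 3 cationic amino acid transporters, which carry arginine, lysine and ornithine, Slc7a1 rose (ENSPEMG00000006808, scaffold KI615441.1, bases 1960781 to 1982591, plus strand). Its controls held 12.5, 15.3 and 16.2 CPM in animals BW35770, BW35772 and BW35773. Treated libraries held 77.8, 201 and 81.4 CPM. Every treated library lay above every control, and that of BW35772 was far above the others. The log2 fold change was 3.04 ± 0.39 (edgeR adjusted p = 0.0114, and 0.00166 with the block). Without the tunicamycin library of BW35772 it was 2.45 and still called. The call was lost in fits that did not pair animals when 1 control was left out (edgeR adjusted p = 0.0552 for BW35770, 0.0825 for BW35772 and 0.0738 for BW35773).

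Slc7a2, the inducible member of this group, was higher with treatment in animal BW35772 and lower in the other two. It went from 4.71 to 20.7 CPM in BW35772, from 8.32 to 7.14 CPM in BW35770 and from 13.6 to 11.2 CPM in BW35773. Slc7a2 was not called (log2 fold change 0.55 ± 0.48, edgeR adjusted p = 0.687). Slc7a3 was near the limit of detection, with 97 counts over all libraries. With treatment it went from 0.14 to 0.58 CPM in BW35770, from 0.33 to 0.48 CPM in BW35772 and from 0.60 to 0.10 CPM in BW35773. In controls Slc7a1 and Slc7a2 were at like levels per length, with means of 3.67 and 3.84 CPM per kb. With treatment the means were 30.1 and 5.61 CPM per kb.

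Both neutral exchangers of the SLC1 family rose, by almost the same amount. Slc1a4 encodes ASCT1, an exchanger of alanine, serine and cysteine (ENSPEMG00000018063, scaffold KI615367.1, bases 6806491 to 6838979, plus strand). It held 193, 117 and 127 CPM in the controls of BW35770, BW35772 and BW35773 and 490.4, 417 and 389 CPM in their treated libraries. The lowest treated library lay well above the highest control. The log2 fold change was 1.57 ± 0.21 (edgeR adjusted p = 0.0131, and 0.00105 with the block), with differences of 1.35, 1.84 and 1.61 within pairs. The call was lost in unpaired fits without the control of BW35772 or BW35773 (edgeR adjusted p = 0.0610 and 0.0946), and against a null of a 1.5-fold change (edgeR adjusted p = 0.0606).

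Slc1a5 encodes ASCT2, a major route of glutamine into cells in culture (ENSPEMG00000013763, scaffold KI615844.1, bases 893853 to 909512, plus strand). It held 37.5, 30.6 and 26.0 CPM in the controls and 98.7, 102 and 81.4 CPM in the treated libraries, in the same order of animals. The groups did not overlap, and the 3 animals kept close together in both. The log2 fold change was 1.58 ± 0.17 (edgeR adjusted p = 0.00503), with differences of 1.40, 1.73 and 1.65. Slc1a2, a glutamate transporter best known from astrocytes, had 61 counts over all libraries and was not called.

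**Figure D2:**
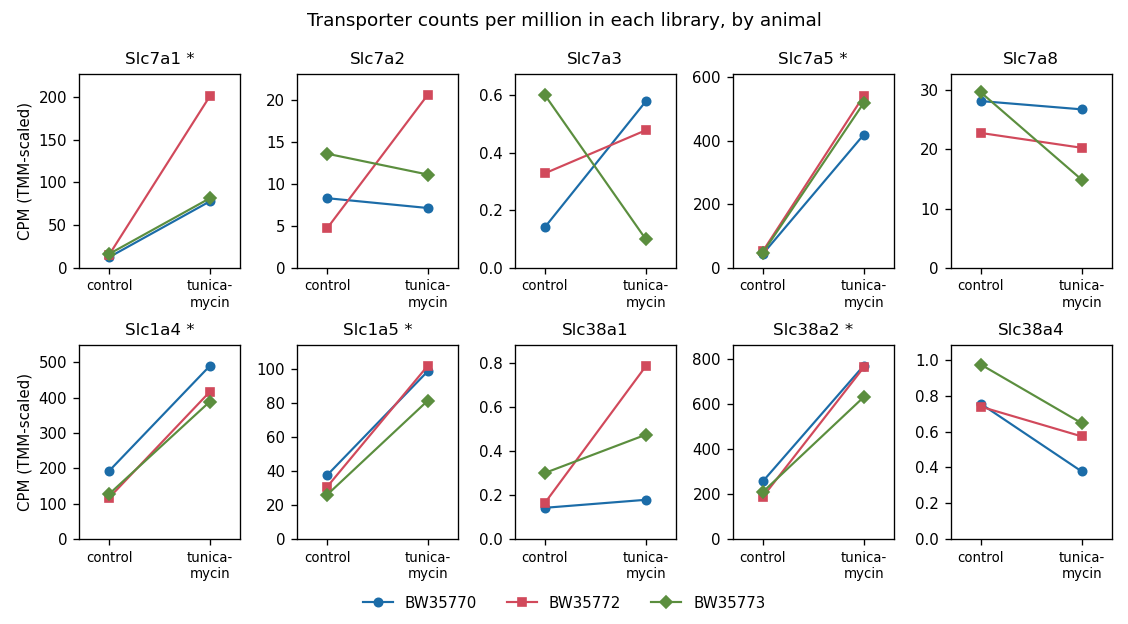
CPM (vertical axes, each from 0) in control and tunicamycin libraries of each animal, joined by a line, for the 5 called transporters (asterisks) and the close relatives of them that have a row. The called genes rise in all 3 animals, while Slc7a2 goes from 4.71 to 20.7 CPM in animal BW35772 and is lower with treatment in the other two.

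Of the 3 system A carriers, which share a stretch of 1 scaffold, Slc38a2 rose. It encodes SNAT2, a carrier that is known to be raised when cells lack amino acids. It held 257, 188 and 209.5 CPM in the controls of BW35770, BW35772 and BW35773 and 771, 763 and 631 CPM in their treated libraries. The lowest treated library lay well above the highest control. The log2 fold change was 1.73 ± 0.16 (edgeR adjusted p = 0.0027), with differences of 1.59, 2.02 and 1.59.

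Slc38a1 and Slc38a4, the other system A genes, were almost silent. Slc38a1 had 92 counts in all, and went from 0.14 to 0.18 CPM, 0.16 to 0.78 CPM and 0.30 to 0.47 CPM in animals BW35770, BW35772 and BW35773. Its log2 fold change was 1.24 ± 0.66 and was not called (edgeR adjusted p = 0.440). Slc38a4 held 0.76, 0.74 and 0.98 CPM in controls and 0.38, 0.57 and 0.65 CPM in treated libraries. Its groups did not overlap and it was not called (log2 fold change -0.63 ± 0.41, edgeR adjusted p = 0.551). In the deposited table the genes lie on scaffold KI615359.1, all on the minus strand, Slc38a1 at bases 4171158 to 4236791, Slc38a2 at 4300872 to 4314079 and Slc38a4 at 4571808 to 4634117. The gap between Slc38a1 and Slc38a2 is 64081 bases, and their mean control levels were 0.03 and 44.4 CPM per kb.

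System N carriers, which move glutamine and histidine, were low. Slc38a3 held 2.91 to 6.82 CPM in controls and 3.61 to 8.98 CPM in treated libraries, and was not called (log2 fold change 0.43 ± 0.42, edgeR adjusted p = 0.736). Slc38a5 had 4 counts, with 0 counts in all 3 controls. A count of 0 allows up to 3 counts, or 0.0709 to 0.0822 CPM in these controls, as counting error alone.

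Transporters of the lysosome and other inner membranes were not called. Slc38a9 is the arginine sensor through which the lysosome signals to mTORC1. It held 8.20, 5.48 and 5.53 CPM in controls and 10.0, 8.57 and 8.85 CPM in treated libraries, higher in every pair and without overlap. Its log2 fold change was 0.51 ± 0.23 (edgeR adjusted p = 0.334, and 0.158 with the block). Slc36a1, a proton-coupled carrier of small amino acids on the lysosome, had differences of -0.10 in all 3 animals and a log2 fold change of -0.10 ± 0.13. Its relative Slc36a4 had a log2 fold change of 0.03 ± 0.33. Slc38a7, which exports glutamine and asparagine from lysosomes, had -0.01 ± 0.29, and its row counts only 858 exon bases.

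Slc38a10 and Slc38a6 were among the more abundant members and had fold changes near 0. Slc38a10 had the highest control level per length of the set, 84.4 CPM per kb, and 83.3 with treatment, a log2 fold change of -0.02 ± 0.17. Slc38a6 stood at 12.4 and 12.3 CPM per kb, a log2 fold change of -0.01 ± 0.22. Neither was called.

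The remaining carriers were not called either, and the highest library of Slc6a6 and of Slc43a2 was the treated one of BW35772. Slc6a6, the taurine transporter, went from 96.8 to 271 CPM in BW35772, from 117 to 130 CPM in BW35770 and from 122 to 101 CPM in BW35773. Its log2 fold change was 0.58 ± 0.34, and 0.06 without the tunicamycin library of BW35772. Slc43a2, a facilitated carrier of large neutral amino acids, went from 28.2 to 56.4 CPM in BW35772, and from 31.7 to 38.3 and 29.1 to 34.3 CPM in BW35770 and BW35773. Its groups did not overlap, and its log2 fold change was 0.53 ± 0.20 (edgeR adjusted p = 0.247, and 0.160 with the block).

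Its relative Slc43a1 was scarce, at 0.87 to 2.53 CPM in controls and 1.07 to 3.67 CPM in treated libraries, with a log2 fold change of 0.37 ± 0.55. Slc16a10, a carrier of aromatic amino acids, had a log2 fold change of 1.72 ± 0.58, as large as that of Slc38a2, on 59 counts in all. It held 0.14, 0.11 and 0.05 CPM in controls and 0.38, 0.36 and 0.27 CPM in treated libraries, without overlap and without a call (edgeR adjusted p = 0.198). Slc6a17 and Slc6a15, neutral amino acid carriers of neurons, had 25 and 2 counts in all.

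By direction alone, 11 of 24 tested transporters were higher in all 3 pairs, 4 were lower in all 3 and 9 were mixed. Over all tested genes 20.7% were higher and 21.7% lower in all 3 pairs. Groups did not overlap for 8 transporters that were higher and 1 that was lower, and over all tested genes for 12.3% and 9.98%. The 8 are the 5 called genes with Slc38a9, Slc43a2 and Slc16a10. The difference was most positive in animal BW35772 for 14 of 24 transporters, including 4 of the 5 called genes, and for 33.6% of all tested genes. The SD of log2 differences over all tested genes was 0.70 in that animal and 0.59 and 0.60 in BW35770 and BW35773. Its part in the members' values was not tested.

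Summed over the 28 rows, the length-scaled level was 325, 305 and 314 CPM per kb in the controls of BW35770, BW35772 and BW35773. In the treated libraries it was 644, 796 and 595 CPM per kb. The ratio of treated to control was 1.89 in BW35773, 1.98 in BW35770 and highest in BW35772. Most of the gain lay in the 5 called genes, whose share of the sum went from 41.1% to 69.7%, 32.2% to 61.2% and 32.9% to 68.9%. This split was made with the calls known and is a description. The other 23 rows had ratios of 1.02, 1.49 and 0.876, again highest in BW35772.

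The order of the transporters by level also differed. Controls were led by Slc38a10, with 26.9 ± 3.98% of the sum, then Slc38a2 (14.1 ± 1.84%), Slc6a6 (13.1 ± 1.34%) and Slc1a4 (13.0 ± 3.27%, SD, n = 3). The last 3 of these did not differ beyond their spread. In treated libraries Slc38a2 led with 21.9 ± 2.44%, then Slc1a4 with 18.3 ± 3.36% and Slc7a5 with 17.2 ± 2.82%, which lay within their spread of each other. Slc7a5 had ranked 7 in controls with 3.60 ± 0.44%, and Slc7a1 moved from rank 15 to rank 7. Slc38a10 stood at rank 4 with 12.2 ± 0.80% of the larger sum.

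**Figure D3:**
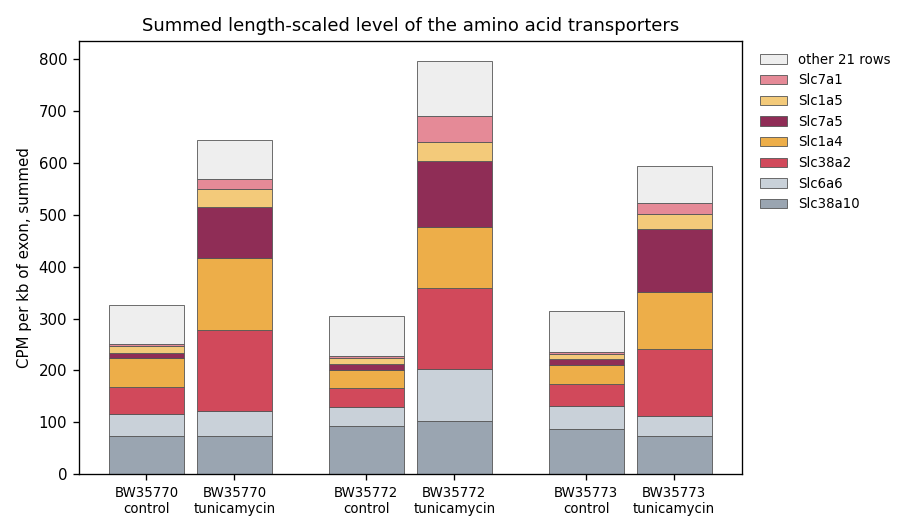
Stacked CPM per kb of exon (vertical axis, from 0) of the transporters in each of the 6 libraries. Slc38a10 and Slc6a6 are drawn in grey, the 5 called genes in colour and the other 21 rows on top. The sums are 325, 305 and 314 in controls and 644, 796 and 595 with tunicamycin.

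Across the 24 tested transporters the log2 fold change had r = 0.05 with log2 control CPM per kb (rho = 0.11) and r = 0.43 with log2 exon length, as a description over genes that share libraries. Slc38a2 and Slc1a4 were among the 4 highest in controls, while Slc7a1 ranked 15.

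For several transporters, among them Slc7a5, Slc38a6, Slc38a10 and Slc36a1, the animals kept a like order in control and treated libraries. The share of all tested genes that did so was not computed. Slc7a7, Slc38a3 and Slc43a1 did so too and are given here, chosen after their values were seen. Slc7a7 was lowest in BW35773, at 0.83 and 0.47 CPM in control and treated libraries, against 2.51 and 2.25 CPM in BW35770 and 2.30 and 1.78 CPM in BW35772. Slc38a3 was lowest in BW35770 (2.91 and 3.61 CPM) and highest in BW35772 (6.82 and 8.98 CPM). Slc43a1 was lowest in BW35770 (0.87 and 1.07 CPM) and highest in BW35773 (2.53 and 3.67 CPM). These differences between animals did not pass the test: the animal terms of the blocked edgeR fit, tested after seeing these values, were called for 0 of 24 transporters and for 3.53% of all tested genes. Before adjustment 6 transporters had an edgeR p under 0.05, led by Slc38a3 (edgeR adjusted p = 0.0730). These 6 included Slc1a4 and Slc7a1. For the 5 genes called with treatment the highest control was 1.20 to 1.65 times the lowest.

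Other carriers of amino acids gave fewer calls in the main fit, with 9.09% called in either direction. The shares were 20.8% for the listed transporters and 2.58% over all tested genes. Of 22 tested genes on a list of mitochondrial, vesicular, lysosomal and epithelial amino acid carriers, 1 rose (Slc7a11) and 1 fell, with a median log2 fold change of 0.11. The gene that fell was Slc25a13, the mitochondrial exchanger of aspartate for glutamate, at -0.98 ± 0.18 (edgeR adjusted p = 0.0403). Both calls were lost when the control of any 1 animal was left out of the unpaired fit. With the block 3 rose and 1 fell, against 5 and 0 of the 24 listed transporters, and 5.47% of all tested genes were called. The added genes were Slc3a1, the heavy chain of the cystine and cationic carrier, and Pqlc2, an exporter of cationic amino acids from lysosomes (edgeR adjusted p with the block = 0.0466 and 0.0477).

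Of 155 other solute carriers tested, which move ions, sugars, nucleotides and other solutes, 1 rose and 0 fell by edgeR, with a median log2 fold change of -0.04. That gene was Slc33a1, the acetyl-CoA carrier of the endoplasmic reticulum, at 1.05 ± 0.13 (edgeR adjusted p = 0.0105), and leaving out the control of any 1 animal lost its call. With the block 5 rose and 5 fell, and DESeq2 called 10 higher and 3 lower. Before adjustment 14 were higher and 11 lower at an edgeR p under 0.05, and limma-voom called 1 lower. A list of amino acid sensing genes for mTORC1 also held parts of mTORC1 itself and its regulators Rheb, Tsc1 and Tsc2. Of its 31 tested genes 1 rose and 0 fell by edgeR, with a median of 0.08. DESeq2 called 2 and limma-voom 0 lower, and before adjustment 2 were lower at an edgeR p under 0.05. The gene that rose was Sesn2, the leucine sensor Sestrin2, at 2.45 ± 0.14 (edgeR adjusted p = 0.000488). With the block Lamtor5, a subunit of the lysosomal Ragulator, was called lower (log2 fold change -0.82, edgeR adjusted p = 0.0348). The lists share libraries and were not tested against each other.

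**Figure D4:**
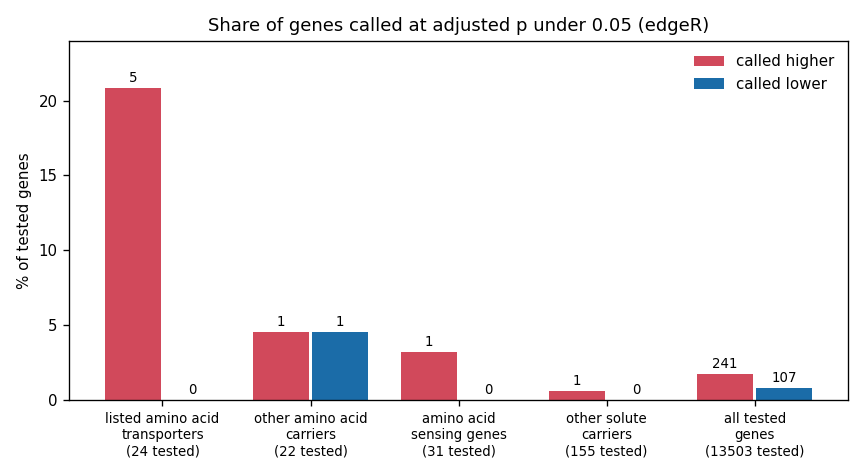
Percent of tested genes called higher or lower by edgeR at an adjusted p under 0.05 (vertical axis, from 0), with the number called above each bar. The listed transporters had 5 of 24 called higher, other amino acid carriers 1 of 22, amino acid sensing genes 1 of 31, other solute carriers 1 of 155 and all genes 241 of 13503. The lists were chosen with earlier results of these data known.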

How the data were processed

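The authors deposited raw read counts (whole numbers) for each gene and library, with the exon length of each gene. Reads were aligned with STAR 2.6.1, handled with SAMtools 1.6 and counted with featureCounts of Subread, per the submitters' processing notes. Libraries were directional per the labels' protocols. The sources used here give no build, annotation release or handling of multi-mapped reads, so close paralogs may share reads. No exon of a member overlaps an exon of another gene of the table. Gene names come from the table, and no member's name is on more than 1 ID.

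Counts were tested with edgeR 4.0.16 in R 4.3.3 (filterByExpr with a minimum count of 10 and total of 15, TMM, quasi-likelihood test, two-sided, treatment as the only term). The SE is the log2 fold change divided by the square root of F. Differences within pairs are on log2 CPM (prior count 2). Alternatives were DESeq2 1.42.0, limma-voom (limma 3.58.1), other scalings and filters, a length trend, and left-out libraries or animals. The steps were tested on simulated data that held no differences between animals, unlike the real pairs. There the fit without the block recovered 1 of 67 genes changed 1.5-fold, 19 of 67 changed 2-fold and 51 of 66 changed 4-fold. The fit with the block recovered 0, 10 and 48 of these. Unchanged genes called numbered 4 without the block and 6 with it.

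Same-numbered libraries come from 1 animal, and their deviations from group means correlated at 0.66, 0.41 and 0.22 across genes. Each replicate is an animal. The main fit treated the 6 libraries as independent, and its p-values rest on the spread between 3 cultures within each group. That spread was moderated across all genes. Only the blocked fit used the pairing. The members and lists were chosen with earlier results of these data known. Values in every library are given for members called with or without the block and their close paralogs. Other members with values by library, and genes outside the lists, were chosen after their values were seen. Slc3a2 matched no row by name, so its ratio to the light chains was not computed.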

Additional observations from a re-analysis of the deposited data

How the results depend on the processing

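Of the 24 tested transporters, the same 5 were called higher with 2 other scalings, no filter, a stricter filter, DESeq2, limma-voom, the length trend removed and the replicate block, which changed no other call among them, and with each animal left out of the blocked fit. Against a null of a 1.5-fold change 4 were called. Leaving out single libraries gave 3 to 5 higher and 0 lower, and only Slc7a1 and Slc1a4 lost calls. Their median log2 fold change was then 0.10 to 0.53, lowest without the treated library of BW35772, and it was 0.11 without that animal in the blocked fit. The mean log2 ratio of their summed level was 1.10, and 0.95 to 1.18 without an animal. Over all genes, 241 were higher and 107 lower, against 679 and 401 in DESeq2, 415 and 324 with the replicate block, 199 lower with the length trend removed, 46 to 313 and 15 to 251 without single libraries, and in the blocked fit 74 and 37 without BW35770, 497 and 451 without BW35772 and 806 and 826 without BW35773. Other amino acid carriers called higher numbered 3 in DESeq2, 0 in limma-voom, 3 with the replicate block, 0 to 1 without single libraries and 3 in the blocked fit without BW35772 or BW35773. Those lower numbered 0 to 1 without single libraries and 0 in the blocked fit without BW35770. Other solute carriers called higher numbered 2 with the stricter filter, 10 in DESeq2, 5 with the replicate block, 3 with the length trend removed, 0 to 3 without single libraries and 7 in the blocked fit without BW35772 or BW35773. Those lower numbered 1 with no filter, the stricter filter or limma-voom, 3 in DESeq2, 5 with the replicate block, 2 with the length trend removed, 0 to 1 without single libraries, and 1, 6 and 8 in the blocked fit without BW35770, BW35772 and BW35773. Amino acid sensing genes called higher numbered 2 in DESeq2 and 5 in the blocked fit without BW35773. Those lower numbered 2 in DESeq2, 1 with the replicate block or the length trend removed, 0 to 1 without single libraries, and 1 and 4 in the blocked fit without BW35772 and BW35773. The cause of these shifts was not tested. Slc16a10 and Slc38a1 had 59 and 92 counts in all, and whether depth bears on their missing calls was not tested.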
